A study of Homo sapiens with 3 samples.

Results

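Glycolysis and its regulation by hypoxia were examined in the transcriptome of 5637, an established human muscle-invasive bladder cancer line, and of its gemcitabine-resistant derivative. The members were fixed by name: glycolytic enzymes, glucose and lactate transporters, hypoxia-inducible factors with their oxygen sensors, and target genes of these factors. They were 37 of the 29960 genes of the deposited table, and 35 of them passed the filter on low counts, as did 15643 genes in all. Poly-A RNA was sequenced from 3 labelled libraries, 1 of the parental line (genotype WT, untreated) and 2 of the resistant line (genotype Gemcitabine Resistant, untreated). All cells were grown in RPMI medium with 10% FBS. By the study's methods each library came from a single-cell clone, so a difference between the lines and a difference between clones cannot be told apart with 1 parental clone. The labels derive the resistant cells from acute gemcitabine treatment, the methods from repeated exposure to rising doses followed by culture without the drug.

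In glycolysis, glucose enters the cell through facilitative transporters, is trapped by phosphorylation and is split into trioses that are oxidized to pyruvate. Pyruvate then enters mitochondria or is reduced to lactate, which leaves with a proton through monocarboxylate transporters. When oxygen is low, prolyl hydroxylases no longer mark the alpha subunits of hypoxia-inducible factor (HIF) for degradation, and HIF raises transcription of most genes of this pathway, of angiogenic factors and of mitophagy receptors. Bladder cancers are known to rely on aerobic glycolysis, and HIF alpha subunits are controlled mainly as proteins, which RNA-Seq does not measure.

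Total counts on genes were 14475531 in the parental library, 15836788 in resistant library 1 and 17461941 in resistant library 2, at which 3 reads correspond to 0.213, 0.184 and 0.173 CPM, the usual read count scaled to a common library size. CPM values here were scaled by edgeR's TMM factors, and fold changes are log2 values of the resistant over the parental line from edgeR's quasi-likelihood fit. That fit takes the spread from the 2 resistant libraries, pooled across genes, and assumes that the parental library varies alike. Of 12 urothelial and epithelial markers, 11 exceeded 3 counts in at least 1 library, and UPK3A was at 0 in all. Their summed level was 9958 CPM in the parental library and 7432 and 7616 CPM in the resistant libraries, with KRT5 and UPK1B called lower in the resistant line. The part of this shift in the results below was not tested. Fibroblast markers summed to 173 CPM in the parental library and to 156 and 148 CPM in the resistant ones, with LUM and COL3A1 at 3 counts or fewer. Most of each sum was COL1A1, at 113, 96.95 and 61.28 CPM, and COL1A2, at 59.3, 57.9 and 84.05 CPM, in the same order. The lower sums thus came from COL1A1, while COL1A2 was highest in resistant library 2 and THY1 had 0, 9 and 27 reads. Endothelial markers summed to between 0.426 and 2.02 CPM and leukocyte markers to between 0.781 and 1.90 CPM, with CDH5, TEK and CD3E among those at 3 counts or fewer. By the study's methods each library was a clone of 1 line, so these sums do not count fibroblasts, endothelial cells or leukocytes. Within a clone, fewer cells that express a marker and less RNA per cell cannot be told apart in a bulk library.

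No member was called at an adjusted p under 0.05 by edgeR's quasi-likelihood test with Benjamini-Hochberg adjustment over all tested genes, against 0.844% of all tested genes (132 genes), with 0.268% called higher and 0.575% called lower. The smallest adjusted p of a member in this test was 0.237, for VEGFA. At an unadjusted p under 0.05 the same test gave 3 of 35 members, VEGFA, ENO2 and EGLN3, or 8.57% against 9.58% of all tested genes. All 3 had higher fitted levels in the resistant line, a direction that held for 4.73% of all tested genes at that unadjusted threshold, against 4.85% in the other direction. DESeq2 likewise called 0 members at an adjusted p under 0.05, against 1.67% of the genes to which it gave an adjusted p, and 2 members at an unadjusted p under 0.05, against 7.03%. The median log2 fold change was 0.03 over the 35 members, with a range from -0.82 to 2.34, and 0.03 over all tested genes. The members' standard errors on the log2 scale ran from 0.33 to 0.96, and among genes called across the table with a mean of at least 10 CPM the smallest change was 1.77 in size.

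**Figure D1:**
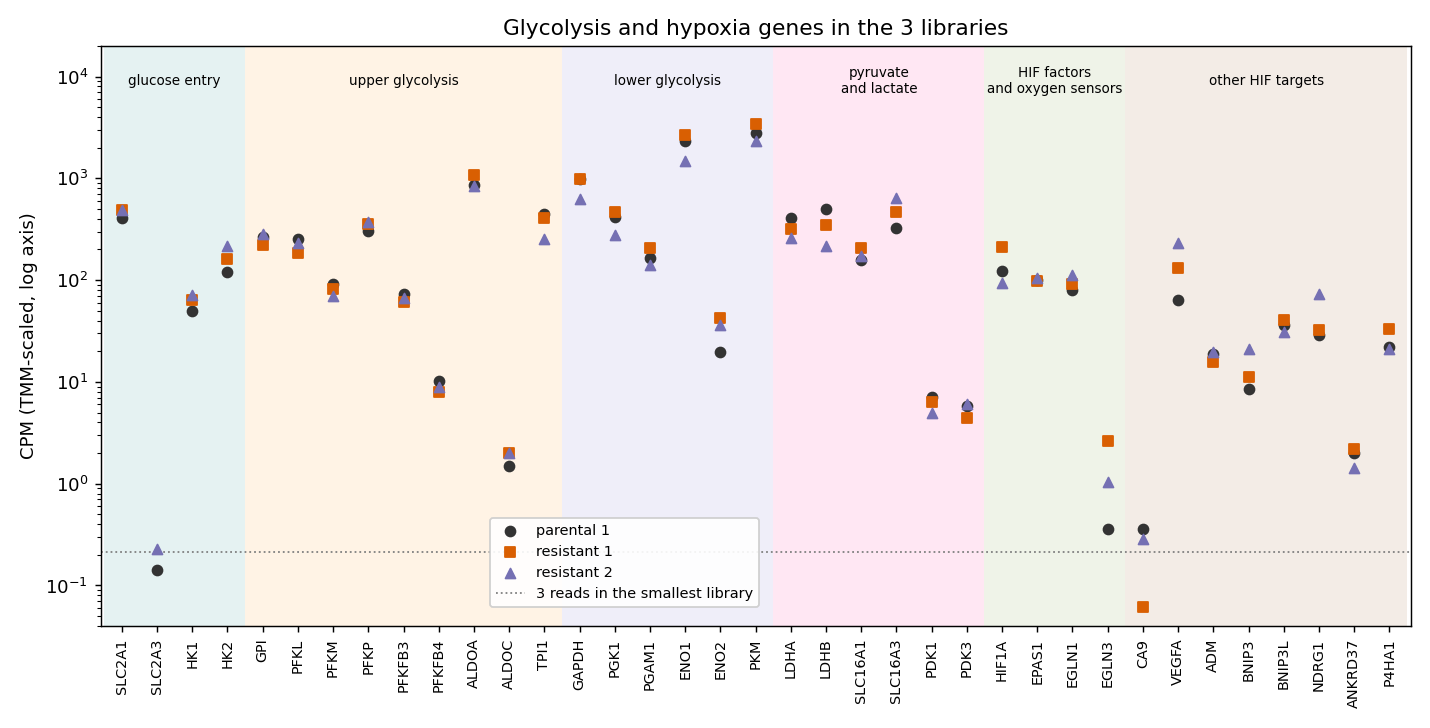
TMM-scaled CPM on a log axis for each of the 37 members in the parental library (circles), resistant library 1 (squares) and resistant library 2 (triangles), grouped by role; the dotted line marks 3 reads in the smallest library, and SLC2A3 at 0 reads in resistant library 1 has no point. The parental library sits below both resistant libraries for VEGFA, ENO2 and EGLN3 and above both for LDHA and LDHB, while resistant library 2 is the lowest of the 3 for GAPDH, PGK1, PGAM1, ENO1 and PKM.

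The parental library lay below both resistant libraries for 13 of 35 members (37.1%, against 35.2% of all tested genes) and above both for 9 (25.7%, against 34.5%). It thus lay outside the resistant pair for 22 members, or 62.9% against 69.6% of all tested genes, and between them for the other 13. Fitted values were above 0 for 19 members, or 54.3% against 52.3%. The resistant clones differed from each other by more than the fitted change of the gene, in size on the log2 scale, in 19 of 35 members, or 54.3% against 50.8% of all tested genes. Each member is therefore given below in every library before its fold change. The authors' own means of normalized counts over each group are given beside some members; they include these 3 libraries and others not used here, carry no error, and are no independent check.

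**Figure D2:**
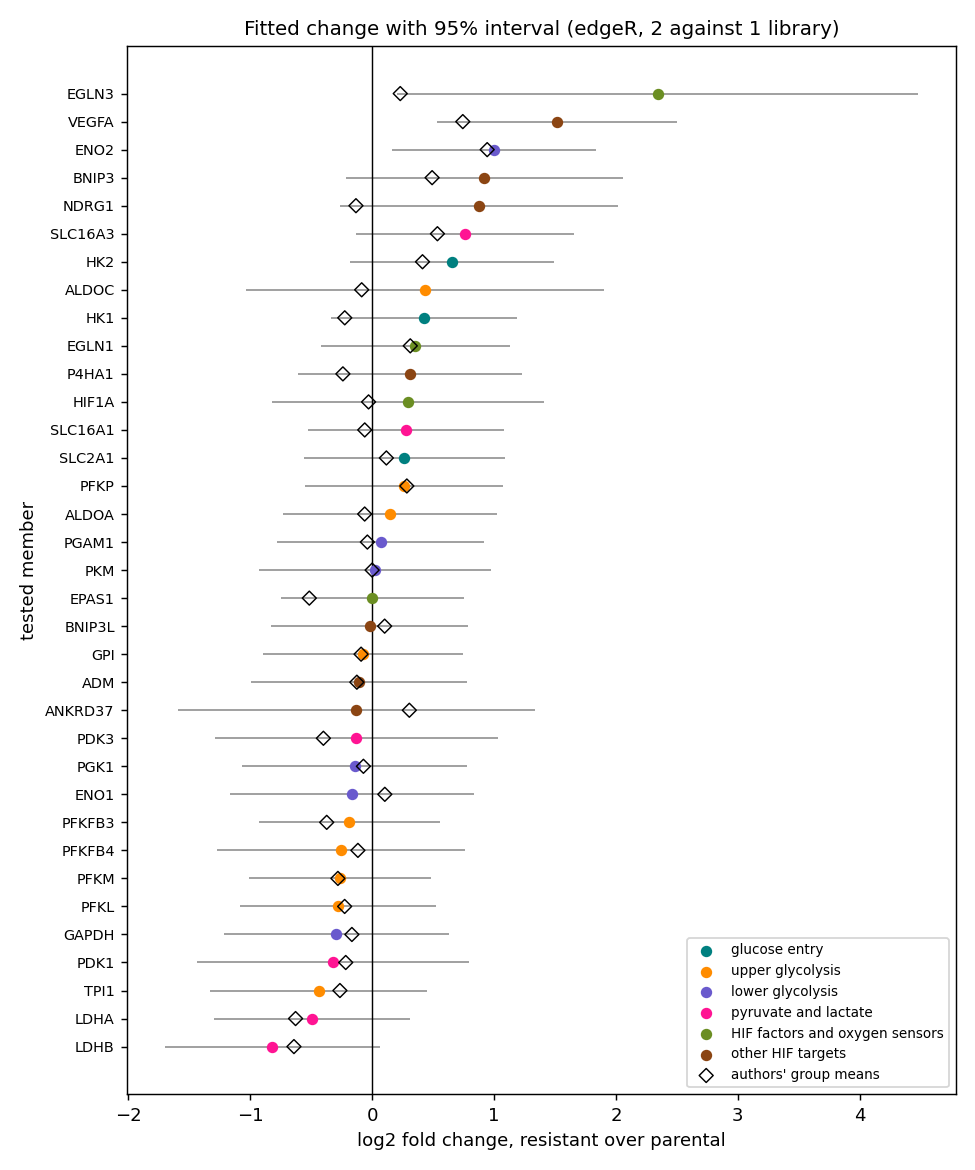
Fitted log2 fold change of the resistant over the parental line for the 35 tested members, with the 95% interval of edgeR's quasi-likelihood fit as a bar and the colour giving the role; open diamonds are log2 ratios of the group means, with a pseudocount of 1. Intervals of VEGFA, ENO2 and EGLN3 lie above 0 before adjustment for multiple testing, and the other 32 include 0.

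Per unit of transcript length, members spanned the whole range from barely detected to very abundant. By the authors' FPKM, which divides by length and library size, ENO1 came first in the parental library and in resistant library 1, at 996 and 1205 FPKM. PKM came next in those libraries, at 909 and 1171 FPKM, and was first in resistant library 2 at 764 FPKM against 655 FPKM for ENO1. GAPDH followed at between 329 and 539 FPKM, then ALDOA at between 328 and 443 FPKM. At the other end EGLN3, CA9 and SLC2A3 stayed below 1 FPKM in all 3 libraries. All 37 members together took 1.12% of the counts in the parental library, 1.33% in resistant library 1 and 0.976% in resistant library 2, so the parental library lay between the resistant ones.

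Promoter sequence bears on the HIF part of the list because HIF binds a short core, ACGTG or GCGTG, within hypoxia response elements. RefSeq windows on GRCh38.p14 from 250 bases before to 50 after a start site were found for 32 of the 37 members. They made up 59 windows of 300 bases. None was found for VEGFA, SLC2A3, SLC16A1, BNIP3L and NDRG1. Both cores were searched on both strands. A CACGTG palindrome, the E-box, therefore counts as a match on each strand. ACGTG occurred in 24 member windows (40.7%, against 21.4% of 35116 windows of all genes) and GCGTG also in 24 (40.7%, against 36.5%). Either core occurred in 40 member windows, or 67.8% against 48.4%. Windows of the same gene can overlap, so they are not independent. By gene, ACGTG occurred in 20 of 32 members against 6790 of 27305 genes, and GCGTG in 20 against 11077. Either core occurred in 30 of 32 members against 14318 of 27305 genes. Members had more windows per gene than all genes did, which gives more places for a match. Promoters of members are printed below with their role where they show how unevenly these letters were spread: those of ENO2 and EGLN3, which with VEGFA had the smallest p of the fit, and those of HK2, LDHA, BNIP3 and CA9, chosen after their matches were seen. Each is the stretch of 250 bases before the start site, 5′ to 3′ on the gene's strand, with either core in capitals in whichever strand it was found. A match in letters is not evidence of binding.

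At glucose entry the levels of the transporter and the hexokinases exceeded the parental level in both resistant libraries, and none passed the adjusted test. The parental library lay below both resistant ones for 35.2% of all tested genes. SLC2A1, which encodes the widely used glucose transporter GLUT1, had 406 CPM in the parental clone against 487 and 488 CPM in the resistant clones. The resistant values were nearly equal, and the fitted log2 fold change was 0.26 with a 95% interval from -0.56 to 1.09. Group means gave 0.12, and subtraction of the median of neighbouring genes within 5 Mb left 0.11. SLC2A3, which encodes the high-affinity transporter GLUT3, was at or near the floor, with 2 parental reads and 0 and 4 resistant reads, and was not tested.

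HK2, the inducible hexokinase that docks on mitochondria, was at 120 CPM in the parental library, 163 CPM in resistant library 1 and 216 CPM in resistant library 2. Both resistant clones lay above the parental one and were 0.41 apart on the log2 scale (95% counting interval from 0.34 to 0.48). The fitted log2 fold change was 0.66 (95% interval from -0.18 to 1.50, edgeR adjusted p = 0.665), and the authors' group means were 1822 and 2428, a log2 ratio of 0.41. HK1, the constitutive hexokinase, was at 50.2 CPM in the parental library and 64.2 and 71.0 CPM in the resistant ones, with a fitted change of 0.43, whereas its group means gave -0.22. HK2 made up 62.3% of hexokinase FPKM (HK1 plus HK2) in the parental library, 63.7% in resistant library 1 and 67.8% in resistant library 2, with exact counting intervals from 60.2 to 64.4%, 62.0 to 65.4% and 66.4 to 69.2%. The interval of resistant library 2 alone stood clear of the parental one. One of the HK2 windows, at chr2:74834920-74835169 on the plus strand, held 6 matches, including a pair of E-box palindromes. By this count it had the most of any member window, together with those of LDHA and BNIP3. Palindromes counted on each strand, so all of these windows held fewer separate sites than matches.
HK2: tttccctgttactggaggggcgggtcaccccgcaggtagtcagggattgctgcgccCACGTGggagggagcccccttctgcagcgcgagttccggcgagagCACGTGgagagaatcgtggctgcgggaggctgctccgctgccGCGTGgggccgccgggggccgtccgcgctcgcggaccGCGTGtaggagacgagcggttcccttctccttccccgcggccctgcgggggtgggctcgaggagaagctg

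In upper glycolysis, 9 members were tested, 6 had fitted values below 0 and 3 above, and their median log2 fold change was -0.19. GPI, the isomerase that follows hexokinase, was at 266 CPM in the parental library and 221 and 286 CPM in the resistant ones, on either side of the parental value. Phosphofructokinase, the committed step, is built from 3 gene products whose transcripts lay on different sides of the parental level. PFKP, the platelet-type subunit, was at 305 CPM in the parental library and 354 and 375 CPM in the resistant ones (fitted log2 fold change 0.26). PFKL, the liver-type subunit, had 254 CPM in the parental clone against 185 and 234 CPM in the resistant clones (-0.28). PFKM, the muscle-type subunit, had 91.1 CPM in the parental clone against 82.6 and 69.3 CPM in the resistant clones (-0.26). No edgeR interval of the 3 excluded 0. The parental library stood outside the resistant pair in each, below it for PFKP and above it for PFKL and PFKM. It did so for 69.6% of all tested genes.

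As a share of phosphofructokinase FPKM, PFKP was 61.9% in the parental library (exact counting interval from 60.9 to 62.9%) and 70.4% and 69.9% in the resistant ones (69.5 to 71.2% and 69.1 to 70.7%). The share of PFKL was 23.8% in the parental library and 16.9% and 20.1% in the resistant ones, and that of PFKM 14.3%, 12.7% and 9.99%, with no test across clones. Neighbouring genes within 5 Mb of PFKL and PFKM had median fitted changes of -0.41 and -0.49, and those of PFKP 0.22. The neighbours thus lay on the same side of 0 as each subunit, and their part in the result was not tested.

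The bifunctional enzymes PFKFB3 and PFKFB4 set the level of fructose 2,6-bisphosphate, the activator of phosphofructokinase. PFKFB3 was at 73.0 CPM in the parental library and 61.0 and 67.2 CPM in the resistant ones. PFKFB4 was at 10.2, 8.02 and 8.99 CPM in the same order. Both were highest in the parental library, by fitted changes of -0.19 and -0.26 that were smaller than their standard errors. PFKFB3 held between 85.2% and 85.9% of their joint FPKM in all 3 libraries.

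ALDOA, the main aldolase of proliferating cells, was at 869 CPM in the parental library, 1087 CPM in resistant library 1 and 838 CPM in resistant library 2, so the parental value lay between the clones. It carried between 99.7% and 99.8% of aldolase FPKM across the 3 libraries, to 3 significant digits. The other aldolase of the list, ALDOC, known from brain, was at 1.49 CPM in the parental library and 2.02 CPM in both resistant ones, from 21, 33 and 35 reads. TPI1, which interconverts the triose phosphates, was at 449 CPM in the parental library, 410 CPM in resistant library 1 and 253 CPM in resistant library 2. Resistant library 2 was the low one, and the fitted change was -0.44 (95% interval from -1.33 to 0.45). Neighbouring genes of TPI1 within 5 Mb had a median fitted change of -0.47. Subtracting that median left 0.03, and the neighbours' part was not tested.

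In lower glycolysis, the enzymes from glyceraldehyde-3-phosphate to pyruvate, all 6 members were lower in resistant library 2 than in resistant library 1, against 50.5% of all tested genes. The median log2 ratio of resistant library 2 to resistant library 1 was -0.61 over the 6, against -0.01 over all tested genes and 0.04 over the 2410 tested genes with a mean of at least 100 CPM. Together they took 0.653% of counts in the parental library, 0.802% in resistant library 1 and 0.486% in resistant library 2 (Wilson 95% counting intervals from 0.649 to 0.658%, 0.797 to 0.806% and 0.483 to 0.489%). The resistant clones thus lay on opposite sides of the parental clone, and the median fitted change of the 6 was -0.06. Their loci are on chromosomes 1, 10, 12, 15 and X. With 1 library per clone, a property of the clone and a property of its library cannot be told apart.

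**Figure D3:**
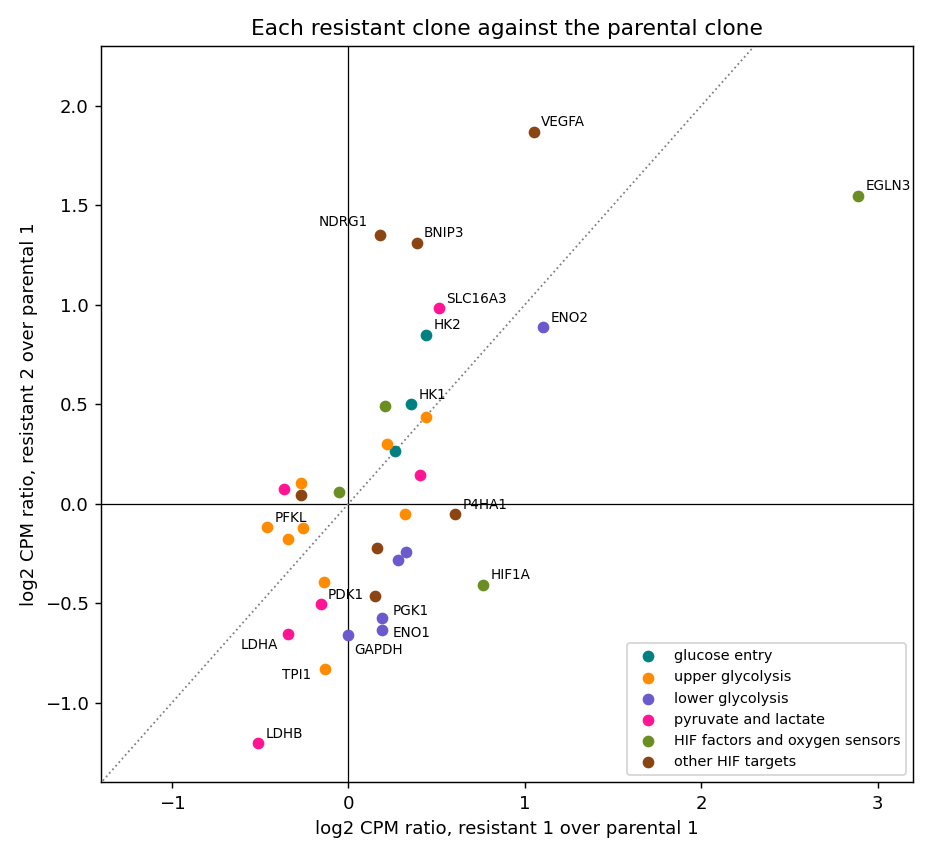
Each tested member's log2 CPM ratio to the parental library, for resistant library 1 (x axis) and resistant library 2 (y axis), coloured by role, with the dotted line marking equal ratios. Lower glycolysis lies below the dotted line in all 6 cases, ENO2 at higher values than the other 5, while VEGFA, BNIP3, NDRG1, SLC16A3 and HK2 lie above it with both ratios positive.

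GAPDH, which oxidizes glyceraldehyde-3-phosphate, was at 981 CPM in the parental library, 980 CPM in resistant library 1 and 621 CPM in resistant library 2. Only resistant library 2 stood apart, by -0.66 against resistant library 1 on the log2 scale (95% counting interval from -0.69 to -0.62). The fitted change of GAPDH was -0.29, beside a median of -0.48 for neighbours within 5 Mb, and subtraction left 0.18. PGK1, the first ATP-yielding enzyme of the pathway, was at 414, 472 and 278 CPM in the same order. PGAM1, which moves the phosphate of phosphoglycerate, was at 166, 208 and 140 CPM. Parental values of both lay between those of the resistant clones, which differed by -0.76 for PGK1 and -0.57 for PGAM1.

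ENO1, the ubiquitous enolase, was at 2320 CPM in the parental library, 2648 CPM in resistant library 1 and 1495 CPM in resistant library 2, the widest clone difference of the 6 at -0.82. Its fitted change was -0.16, and the authors' group means gave 0.10. PKM, the pyruvate kinase that ends the pathway, was at 2819 CPM in the parental library, 3422 CPM in resistant library 1 and 2320 CPM in resistant library 2. The parental value again lay between the clones, with a fitted change of 0.03 and group means of 44060 and 44090 normalized counts. Splicing of PKM into its adult and proliferative forms was not analysed here, since the values are per gene.

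ENO2, the enolase known as a marker of neurons and neuroendocrine cells and also a HIF target, was the one lower glycolytic gene with both resistant clones above the parental one. It was at 19.7 CPM in the parental library (277 reads), 42.2 CPM in resistant library 1 (690 reads) and 36.4 CPM in resistant library 2 (631 reads). Both resistant clones exceeded the parental one and lay within 0.22 of each other on the log2 scale. The fitted log2 fold change was 1.00 (SE 0.38, 95% interval from 0.16 to 1.83), with an edgeR adjusted p of 0.417 that missed the threshold. Authors' group means were 231.6 in the parental and 446.6 in the resistant group, a log2 ratio of 0.94. ENO2 (ENSG00000111674) lies on chromosome 12 at 7022909 to 7032861 (hg19, plus strand), 42797 bases past the end of TPI1, and the neighbouring genes within 5 Mb had a median fitted change of -0.47. The same table counts LRRC23, which overlaps ENO2 on the same strand, at 76, 69 and 41 reads. As a share of enolase FPKM, ENO2 was 0.675% in the parental library and 1.26% and 1.91% in the resistant ones, with exact counting intervals from 0.598 to 0.759%, 1.17 to 1.36% and 1.77 to 2.07%. Its promoter window, at chr12:6914330-6914579 on the plus strand, held 1 match, 118 bases before the start site.
ENO2: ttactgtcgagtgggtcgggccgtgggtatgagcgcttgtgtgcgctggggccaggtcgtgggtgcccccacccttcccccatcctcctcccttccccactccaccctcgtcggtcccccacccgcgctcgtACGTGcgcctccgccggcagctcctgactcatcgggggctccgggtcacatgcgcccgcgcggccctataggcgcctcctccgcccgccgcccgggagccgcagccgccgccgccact

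At the fate of pyruvate, both lactate dehydrogenase genes were below the parental level in each resistant library, while lactate transporter genes were above it. No edgeR interval excluded 0. The parental library lay above both resistant ones for 34.5% of all tested genes and below both for 35.2%. LDHB, which encodes the heart-type subunit, was at 499 CPM in the parental library, 350 CPM in resistant library 1 and 216 CPM in resistant library 2. Its fitted log2 fold change of -0.82 (SE 0.40, 95% interval from -1.70 to 0.06, edgeR adjusted p = 0.566) was the lowest of all members. Group means gave a log2 ratio of -0.64, with 7372 and 4729 normalized counts. LDHB lies at 21788276 to 21910791 on chromosome 12 (hg19, minus strand), where the median fitted change of neighbours within 5 Mb was -0.54. Subtracting that median left -0.27, and the neighbours' part in the result was not tested.

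LDHA, which encodes the muscle-type subunit and is a HIF and MYC target, was at 407 CPM in the parental library, 321 CPM in resistant library 1 and 258 CPM in resistant library 2. The parental value exceeded both, by a fitted change of -0.49 (95% interval from -1.30 to 0.31, edgeR adjusted p = 0.770), beside -0.42 for its neighbours and -0.63 from the group means. LDHA nonetheless took a larger share of lactate dehydrogenase FPKM in the resistant libraries. The share was 34.2% in the parental library, 36.9% in resistant library 1 and 43.2% in resistant library 2, with exact counting intervals from 33.4 to 35.0%, 36.0 to 37.8% and 42.1 to 44.2%. One of the LDHA windows, at chr11:18394313-18394562 on the plus strand, held 5 matches before the start site, including a pair of E-box palindromes that each counted on both strands. A link between these matches and the gene's level was not tested.
LDHA: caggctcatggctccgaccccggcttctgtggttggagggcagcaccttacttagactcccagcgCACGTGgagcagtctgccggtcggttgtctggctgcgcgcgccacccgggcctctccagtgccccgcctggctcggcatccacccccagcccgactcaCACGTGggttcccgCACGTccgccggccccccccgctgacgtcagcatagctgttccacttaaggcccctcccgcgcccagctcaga

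SLC16A3, which encodes the lactate exporter MCT4 and is a HIF target, was at 328 CPM in the parental library, 468 CPM in resistant library 1 and 648 CPM in resistant library 2. Both clones exceeded the parental one, with a fitted log2 fold change of 0.77 (95% interval from -0.13 to 1.66, edgeR adjusted p = 0.613) and 0.54 from the group means. The gene overlaps CSNK1D on the opposite strand, which had 3957, 4639 and 6271 reads, and whether counting used strand is not given in the sources used here. SLC16A1, which encodes MCT1 and carries lactate both ways, was at 157, 208 and 173 CPM in the same order, with a fitted change of 0.28, whereas its group means gave -0.06. SLC16A3 took 65.5% of the FPKM of the pair in the parental library, 67.1% in resistant library 1 and 77.2% in resistant library 2. The exact counting interval of resistant library 1 began at 66.2%, under the parental upper bound of 66.6%, whereas that of resistant library 2, from 76.5 to 77.9%, lay above both.

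The list holds 2 pyruvate dehydrogenase kinases, which close the mitochondrial entry of pyruvate, and both were at low CPM. PDK1, the HIF-induced kinase, was at 7.03 CPM in the parental library and 6.30 and 4.96 CPM in the resistant ones. PDK3 was at 5.75, 4.47 and 6.05 CPM. Neither differed beyond its standard error, with fitted changes of -0.32 for PDK1 and -0.13 for PDK3.

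**Figure D4:**
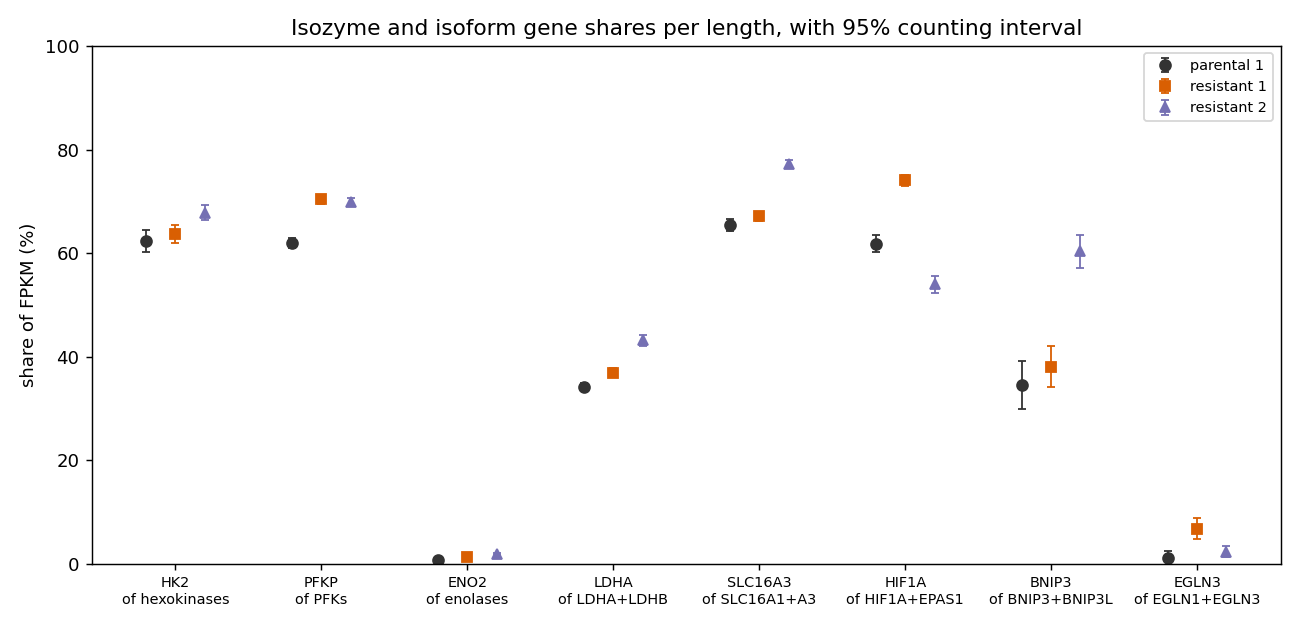
Share of 1 gene in the summed FPKM of its isozyme or paralog family in the parental library (circles), resistant library 1 (squares) and resistant library 2 (triangles), with 95% counting intervals that cover counting error only. PFKP and ENO2 shares exceed the parental share in both resistant libraries, whereas that of HIF1A lies above it in resistant library 1 and below it in resistant library 2.

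Among the HIF factors and their sensors, the resistant clones differed most in EGLN3, at few reads, and next in HIF1A. HIF1A, the oxygen-regulated alpha subunit that drives glycolytic genes, was at 124 CPM in the parental library, 211 CPM in resistant library 1 and 93.6 CPM in resistant library 2. The resistant clones lay on opposite sides of the parental one and differed by -1.17 on the log2 scale (95% counting interval from -1.26 to -1.09), far more than the fitted change of 0.29. Group means were almost equal, with a log2 ratio of -0.03. EPAS1, which encodes HIF-2 alpha, was at 101 CPM in the parental library and 97.4 and 105 CPM in the resistant ones, a fitted change of 0.00, while the group means gave -0.51. HIF1A therefore made up 61.8% of the FPKM of the pair in the parental library, 74.0% in resistant library 1 and 54.0% in resistant library 2.

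EGLN1, the main prolyl hydroxylase of normoxic cells, was at 80.1 CPM in the parental library and 92.4 and 113 CPM in the resistant ones, a fitted change of 0.36. EGLN3, a prolyl hydroxylase that is itself induced by HIF, was at 0.355 CPM in the parental library (5 reads), 2.63 CPM in resistant library 1 (43 reads) and 1.04 CPM in resistant library 2 (18 reads). Both clones exceeded the parental one, but at very few reads. They differed from each other by -1.34 on the log2 scale (95% counting interval from -2.22 to -0.52). The fitted log2 fold change was 2.34 (SE 0.96, 95% interval from 0.21 to 4.48, edgeR adjusted p = 0.460), whereas the group means were 18.3 and 21.7, a log2 ratio of 0.23. EGLN3 (ENSG00000129521) spans 34393437 to 34931980 on chromosome 14 (hg19, minus strand) and overlaps SPTSSA on the same strand, which had 444, 645 and 829 reads. Its promoter window, at chr14:33951075-33951324 on the minus strand, held neither core.
EGLN3: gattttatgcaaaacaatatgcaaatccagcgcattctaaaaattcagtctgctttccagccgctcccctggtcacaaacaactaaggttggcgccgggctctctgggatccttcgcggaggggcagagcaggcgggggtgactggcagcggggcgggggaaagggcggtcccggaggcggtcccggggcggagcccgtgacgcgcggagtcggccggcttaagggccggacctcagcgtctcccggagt

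Of the other HIF targets, VEGFA had the smallest adjusted p of all members. VEGFA, the main angiogenic growth factor, was at 64.1 CPM in the parental library (903 reads), 133 CPM in resistant library 1 and 234 CPM in resistant library 2. Each resistant clone was well above the parental one, and they differed from each other by 0.82 on the log2 scale (95% counting interval from 0.74 to 0.89). The fitted log2 fold change was 1.52, or 2.86-fold (SE 0.44, 95% interval from 0.53 to 2.50), with an edgeR adjusted p of 0.237. Without a filter on low counts the edgeR adjusted p was 0.0206, which passed the threshold, and over all fitted alternatives it ran from 0.0206 to 0.296. Group means were 1255 in the parental and 2103 in the resistant group, a log2 ratio of 0.74. VEGFA (ENSG00000112715) lies at 43737921 to 43754224 on chromosome 6 (hg19, plus strand), where the neighbours within 5 Mb had a median fitted change of 0.10.

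CA9, which encodes the membrane carbonic anhydrase widely used as a hypoxia marker, was near the floor, with 5 reads in the parental library and 1 and 5 reads in the resistant ones. These are 0.355, 0.0612 and 0.288 CPM, too few for the test. The CA9 window, at chr9:35673678-35673927 on the plus strand, is shown because its single core lies 18 bases before the start site of a gene that was hardly read in any of the 3 libraries.
CA9: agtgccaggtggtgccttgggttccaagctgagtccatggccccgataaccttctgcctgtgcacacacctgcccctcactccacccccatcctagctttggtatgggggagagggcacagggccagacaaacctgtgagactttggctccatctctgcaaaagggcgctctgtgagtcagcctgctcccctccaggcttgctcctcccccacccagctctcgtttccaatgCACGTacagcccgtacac

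BNIP3, a mitophagy receptor, was at 8.52 CPM in the parental library, 11.1 CPM in resistant library 1 and 21.2 CPM in resistant library 2. Resistant library 2 was the high one, by 0.93 over resistant library 1 (95% counting interval from 0.67 to 1.19). The fitted log2 fold change was 0.92 (edgeR adjusted p = 0.649), against 0.65 for its neighbours within 5 Mb and 0.49 from the group means. BNIP3L, its paralog, was at 36.4 CPM in the parental library and 40.7 and 31.2 CPM in the resistant ones, a fitted change of -0.02. BNIP3 accordingly made up 34.5% of the FPKM of the pair in the parental library, 38.1% in resistant library 1 and 60.4% in resistant library 2, with exact counting intervals from 29.9 to 39.1%, 34.2 to 42.0% and 57.1 to 63.6%. The BNIP3 window, at chr10:131981924-131982173 on the minus strand, held 6 matches packed within a short stretch, 4 of them of the core GCGTG.
BNIP3: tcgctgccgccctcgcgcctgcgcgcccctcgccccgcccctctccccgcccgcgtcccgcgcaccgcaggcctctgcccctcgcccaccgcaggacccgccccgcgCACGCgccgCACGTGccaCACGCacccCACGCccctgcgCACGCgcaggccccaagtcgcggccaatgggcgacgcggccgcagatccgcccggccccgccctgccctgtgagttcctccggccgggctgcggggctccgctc

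NDRG1, a stress-responsive gene of differentiation and metastasis suppression, was at 28.9 CPM in the parental library, 32.7 CPM in resistant library 1 and 73.6 CPM in resistant library 2. The fitted log2 fold change of 0.88 (edgeR adjusted p = 0.673) rested mainly on resistant library 2, whose log2 ratio to the parental library was 1.35 against 0.18 for resistant library 1, and the group means gave -0.13. ADM, which encodes the vasodilator adrenomedullin, was at 19.0 CPM in the parental library and 15.7 and 19.5 CPM in the resistant ones. P4HA1, a collagen prolyl hydroxylase subunit, was at 21.9, 33.4 and 21.2 CPM, with only resistant library 1 raised. ANKRD37, a small ankyrin-repeat protein, was at 1.99, 2.20 and 1.44 CPM and overlaps UFSP2 on the opposite strand.

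The 8 other HIF targets together took 0.0176% of counts in the parental library, 0.0277% in resistant library 1 and 0.0400% in resistant library 2, with Wilson 95% counting intervals from 0.0170 to 0.0183%, 0.0269 to 0.0286% and 0.0391 to 0.0410%. Much of that sum was VEGFA, with 903, 2172 and 4064 reads of the 2552, 4392 and 6985 reads of the group. The typical member did not follow the sum, since the median log2 ratio to the parental library over the 7 tested genes was 0.18 in resistant library 1 and 0.04 in resistant library 2. VEGFA, NDRG1, BNIP3 and ADM were highest in resistant library 2, whereas BNIP3L, P4HA1 and ANKRD37 were lowest there, as HIF1A was. Some of these places rested on small differences from the parental library. The log2 ratio of resistant library 2 to the parental one was 0.04 for ADM and -0.05 for P4HA1, and ANKRD37 had 25 against 28 reads. Over the 7 tested other HIF targets the median fitted change was 0.31, with 4 above and 3 below 0, and none passed the adjusted test.

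The wider pathway was read from lists of genes that are not members. No gene passed an adjusted p of 0.05 by edgeR among 11 tested further genes of glycolysis and gluconeogenesis, 7 further sugar and lactate transporters, 12 genes of pyruvate entry into mitochondria and 33 further HIF targets. Of all tested genes 0.844% were called, a share that corresponds to few or no calls in lists this short. Their median fitted changes were 0.30, 0.09, 0.29 and -0.03. Of 15 tested genes of the HIF pathway machinery, 1 was called, and it was lower, as were 0.575% of all tested genes. That gene was ARNT2, a partner subunit that can pair with HIF alpha in place of the common ARNT. It was at 20.4 CPM in the parental library, 3.86 CPM in resistant library 1 and 2.07 CPM in resistant library 2. Both resistant clones lay far below the parental one, with a fitted log2 fold change of -2.78 (edgeR adjusted p = 0.0356) and -1.20 from the group means.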

How the data were processed

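RNA of single-cell clones was sequenced on an Illumina platform; the submitters' processing notes name CASAVA 1.8 and hg19, and the aligner, counter and annotation are not given in the sources used here. The authors deposited raw read counts per gene and library, FPKM per gene and library, and group signal, which is the mean of counts divided by size factors. Columns of the authors' DESeq2 comparison (log2 fold change, p-value, adjusted p-value) were not used, nor were 6 per-library columns without a label.

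Counts were fitted with edgeR 4.0.16 in R 4.3.3 (TMM, filterByExpr, robust quasi-likelihood test, two-sided, Benjamini-Hochberg adjustment over 15643 genes, threshold 0.05), with 1 parental and 2 resistant libraries and 1 residual degree of freedom. p-values measure only the spread between these libraries. The median prior degrees of freedom were 9.19 and the biological coefficient of variation 0.281. On simulated data with 2 libraries against 1 (15310 genes), 100 of 100 genes changed 8-fold and 67 of 100 changed 4-fold were recovered. Of 15110 unchanged genes, 10 were called. The simulation gave every gene the same biological coefficient of variation and changed only genes above a low CPM limit. DESeq2 1.42.0 was an alternative, with relative log expression factors, no filter, a mean CPM of at least 1, each resistant library left out, the group means (pseudocount 1) and subtraction of the median of genes within 5 Mb. Reads of 3 or fewer in a library were the floor. Read shares carry Wilson, and isozyme shares and clone ratios exact, 95% binomial intervals, which cover counting error only, as PCR reads are not independent molecules. Isozyme shares used the authors' FPKM. Pseudogenes listed under a member's name held at most 0.833% of that member's counts (11 members had any), and 20 members overlapped another gene of the table, 10 of them a protein-coding one. Promoters are RefSeq windows on GRCh38.p14, and gene positions those of the deposited table (hg19).

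Members and lists were chosen with earlier results of these data known. Every member is named. Of the further lists, genes past the threshold are named, and promoters were to be printed for the 3 members with the smallest p. Of these 3, VEGFA had no promoter window. Calculations ran in Python 3.11.15 (scipy 1.17.1, numpy 2.4.6, matplotlib 3.10.9, pandas 2.3.3).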

Additional observations from a re-analysis of the deposited data

How the results depend on the processing

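In simulated data with these 3 libraries 67 of 100 genes changed 4-fold were recovered, and smaller folds were not simulated. That share need not hold for members with few reads or a wider spread, which the simulation did not cover. No paired analysis was possible because the groups share only 1 replicate number. Genes called numbered 132 (42 higher and 90 lower), against 534 without a filter (273 and 261), 72 at a mean CPM of at least 1 (17 and 55) and 246 by DESeq2 (121 higher), while relative log expression factors gave 73 higher. The cause was not tested. Members called went from 0 to 1, VEGFA, without a filter, where the median of all tested genes also moved to 0.12. EPAS1 changed sign at values near 0, to -0.0015 with relative log expression factors and with DESeq2 and to -0.0046 without a filter. The edgeR or DESeq2 adjusted p ran from 0.364 to 0.546 for ENO2, from 0.183 to 0.869 for EGLN3 and from 0.473 to 0.717 for LDHB. Without 1 resistant library, the members' median log2 ratio ran from -0.05 to 0.19, a value with no test, and no count of calls could be had. Against the group means 12 of 35 members moved beyond a limit set by the spread of the resistant pair, and after subtraction of the neighbours 13 did. That limit could be smaller than the pair's log2 difference. VEGFA, for 1, counted as moved from 1.52 to 0.74, with resistant clones 0.82 apart.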

Other observations

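Of 78 tested genes of the further lists, 5 (6.41%, against 4.73% of all tested genes) had an unadjusted p under 0.05 by edgeR with higher fitted values in the resistant line. None of the 5 passed the adjusted test, and they are named after their values were seen. In the other direction ARNT2 was the only such gene of these lists, against 4.85% of all tested genes. Of the 33 tested further HIF targets, 16 had fitted values above 0 and 17 below. PDP1, a phosphatase that reactivates pyruvate dehydrogenase, was at 33.1 CPM in the parental library and 110.3 CPM in both resistant ones (log2 fold change 1.74, edgeR adjusted p = 0.0707). HKDC1, a hexokinase-like gene, was at 1.35 CPM in the parental library, 5.20 CPM in resistant library 1 and 12.1 CPM in resistant library 2 (2.68, edgeR adjusted p = 0.181). SLC2A12, a sugar transporter gene, was at 15.2 CPM in the parental library and 39.5 and 40.9 CPM in the resistant ones (1.40, edgeR adjusted p = 0.189). ANGPTL4, a lipoprotein lipase inhibitor and HIF target, had 6 reads in the parental library and 41 and 91 reads in the resistant ones (3.16, edgeR adjusted p = 0.169). ERO1L, an oxidase of the endoplasmic reticulum, was at 77.9, 123 and 182 CPM in the same order (0.97, edgeR adjusted p = 0.451). The authors' group means gave smaller log2 ratios for all 5. These were 1.21 for PDP1, 1.20 for HKDC1, 1.12 for SLC2A12, 1.72 for ANGPTL4 and 0.54 for ERO1L.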
